A study of Mus musculus with 4 samples.

Results

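The mitosis and spindle genes are a set of 41 genes whose proteins drive entry into mitosis, build the spindle, attach and separate chromosomes and divide the cell. They were chosen by name, and all 41 were found among the 18193 genes that the array's probe sets name singly. Where a gene has several probe sets, the brightest one (by mean log2 intensity over the 4 arrays) stands for it. Intensities are in linear, normalised units and are compared between arrays for 1 gene at a time, never between genes. All 41 genes passed the level filter, a highest intensity of at least 157, the median of all values. They did so on each of the 4 arrays, the lowest reading of any of them being 555, and they are compared with the 12239 genes in all that passed.

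Gene expression was measured on 1 array for each of 4 sorted mouse bone marrow populations. These were Fbw7-deficient LSK cells, wild-type LSK cells, Fbw7-deficient MP cells and wild-type MP cells. LSK cells are negative for lineage markers and positive for Kit and Sca1, a gate that holds blood stem cells and the earliest progenitors. MP cells, the myeloid progenitors, were sorted as Kit-positive and Sca1-negative. Fbw7 (gene Fbxw7) picks the substrates of an SCF-type E3 ligase, cyclin E and MYC among them, and the study's title concerns stem cell quiescence. All mice, wild-type ones included, had been given polyI:C, an interferon inducer, at 20 ug per g in 3 intraperitoneal doses on alternate days, and marrow was collected 2 weeks after treatment. Cells of 3 mice per genotype were combined and then sorted, so both arrays of a genotype draw on one pool. The sources used here do not state the allele, any Cre driver, the strain or the age of the mice. With 1 array a group there is no replicate error and no test was possible, and the number of arrays limits the precision.

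Entry into mitosis is driven by CDK1 bound to cyclin B or cyclin A, with the Polo and Aurora kinases acting beside it. Kinetochores then join chromosomes to the spindle, and a checkpoint holds back the anaphase-promoting complex (APC/C), a ubiquitin ligase, until every chromosome is attached. RNAs of these genes are low in resting cells and peak in the G2 and M phases, so their level in a population depends on how many of its cells are dividing. Long-term hematopoietic stem cells are mostly resting, whereas multipotent and myeloid progenitors divide often. In a sorted bulk sample, fewer dividing cells and less RNA per dividing cell cannot be told apart.

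Promoters of such genes commonly carry a cell cycle genes homology region, bound by the MuvB complexes that repress them in resting cells and activate them in G2 and M, together with CCAAT boxes, bound by NF-Y. RefSeq promoter sequences (build GRCm38.p6, 250 bases before to 50 bases after the transcript start) were at hand for 35 of the 41 genes. The letters TTTGAA, on either strand, stood in 26 of the 35 promoters (74.3%), against 18.1% of all 27025 promoters. Within 50 bases of the start they stood in 24 of the 35 (68.6%), against 4.92% of all promoters. The palindromic letters TTTAAA stood in 9 (25.7%, against 13.2%). CCAAT, on either strand, stood in 27 (77.1%, against 37.9%), and 18 promoters (51.4%, against 12.2%) held at least 2 of them. For E2F, TTTCCCGC or TTTGGCGC on either strand stood in 1 of the 35, that of Ncapg (2.86%, against 1.63%). A match is a run of letters and not a shown binding site. The following 5 promoters are shown because they belong to the gene with the largest difference seen in both populations (Ube2c), to a pair of kinase genes whose differences were nearly equal in LSK and MP (Cdk1, Plk1), to a gene that differed in MP only on its main probe set (Hmmr) and to one that differed little in either on its main probe set (Top2a). Capitals mark these homology region letters and the CCAAT boxes, in both orientations.
Ube2c, chr2:164769679-164769978, plus strand: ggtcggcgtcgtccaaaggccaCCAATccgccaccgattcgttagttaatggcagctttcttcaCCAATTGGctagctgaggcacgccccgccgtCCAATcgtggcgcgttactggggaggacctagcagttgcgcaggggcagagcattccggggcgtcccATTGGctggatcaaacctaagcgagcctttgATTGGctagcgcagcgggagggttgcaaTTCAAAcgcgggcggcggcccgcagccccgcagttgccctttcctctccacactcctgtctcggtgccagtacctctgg
Cdk1, chr10:69352863-69353162, minus strand: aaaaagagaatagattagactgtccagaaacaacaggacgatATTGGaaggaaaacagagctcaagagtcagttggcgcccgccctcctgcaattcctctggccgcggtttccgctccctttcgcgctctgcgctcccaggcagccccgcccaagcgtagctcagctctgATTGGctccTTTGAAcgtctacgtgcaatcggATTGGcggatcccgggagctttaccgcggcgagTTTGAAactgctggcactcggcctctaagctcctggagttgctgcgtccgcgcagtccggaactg
Plk1, chr7:122159185-122159484, plus strand: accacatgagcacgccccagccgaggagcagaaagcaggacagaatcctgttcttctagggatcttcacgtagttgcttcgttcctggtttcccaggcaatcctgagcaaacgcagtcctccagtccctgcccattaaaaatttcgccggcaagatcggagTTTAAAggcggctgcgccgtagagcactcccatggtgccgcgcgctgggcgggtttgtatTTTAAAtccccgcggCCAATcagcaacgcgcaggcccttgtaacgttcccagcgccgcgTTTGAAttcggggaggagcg
Hmmr, chr11:40733388-40733687, minus strand: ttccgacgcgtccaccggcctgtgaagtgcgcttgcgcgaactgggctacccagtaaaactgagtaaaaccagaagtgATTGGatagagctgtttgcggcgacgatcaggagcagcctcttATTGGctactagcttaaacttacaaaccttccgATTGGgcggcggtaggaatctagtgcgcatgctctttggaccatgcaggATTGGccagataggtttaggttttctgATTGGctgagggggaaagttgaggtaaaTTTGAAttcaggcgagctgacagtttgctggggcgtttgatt
Top2a, chr11:99024140-99024439, minus strand: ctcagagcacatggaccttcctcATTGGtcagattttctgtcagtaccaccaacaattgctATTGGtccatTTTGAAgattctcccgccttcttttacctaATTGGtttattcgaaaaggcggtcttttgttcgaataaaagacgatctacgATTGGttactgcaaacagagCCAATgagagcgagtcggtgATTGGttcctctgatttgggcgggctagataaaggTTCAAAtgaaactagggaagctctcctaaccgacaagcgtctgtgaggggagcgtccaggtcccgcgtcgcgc
The letters TTTGAA, in one orientation or the other, lay within 50 bases of the start in all 5. The Ube2c and Top2a promoters held 6 CCAAT matches each, with a forward and a reverse match overlapping in that of Ube2c, and the Plk1 promoter held 1. Of the 35 promoters, 4 held neither form of the homology region letters nor a CCAAT box. The 28 genes with homology region letters of either form had median log2 differences between Fbw7-deficient and wild-type cells of 0.06 in LSK and 0.25 in MP, against 0.05 and 0.02 for the 7 genes with neither. The 18 genes with at least 2 CCAAT boxes had medians of 0.14 in LSK and 0.23 in MP, against 0.03 and 0.17 for the other 17. Both contrasts use the main probe sets and were not tested.

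**Figure D1:**
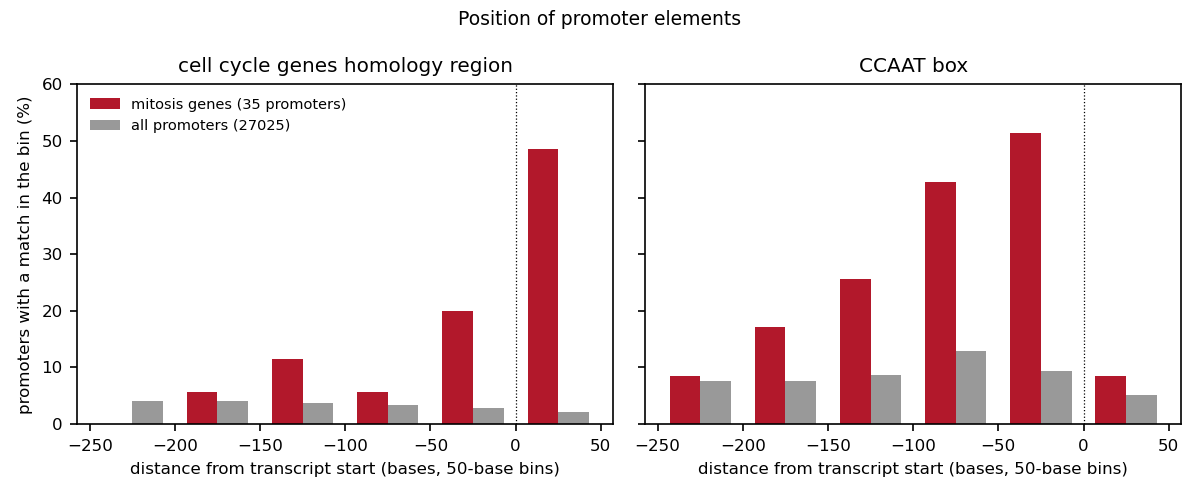
Share of promoters with a match, in percent, by distance from the transcript start in bases, in bins of 50 bases, for TTTGAA (left) and CCAAT (right), with the 35 promoters of the mitosis genes in red and all 27025 promoters in grey. The red bars reach 48.6% for TTTGAA in the bin just after the start and 51.4% for CCAAT in the bin just before it.

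The 4 arrays had nearly equal medians, from 155 to 159. Their 75th percentiles were less equal, at 619 in Fbw7-deficient LSK and 638 in wild-type LSK, against 579 in Fbw7-deficient MP and 591 in wild-type MP. With quantile normalization, which makes these equal, the medians of the mitosis genes between genotypes were 0.11 in LSK and 0.23 in MP. As deposited they were 0.12 and 0.22. For Fbw7-deficient LSK against MP the median was -0.01 with it and 0.05 without. The part of this in the results was not tested further. The wild-type LSK array had the strongest signal of the 3' control probe set relative to the 5' one for Gapdh, a ratio of 4.30, against 2.60 to 2.95 on the others, and for Actb, at 3.53 against 2.67 to 2.99. A larger ratio goes with RNA that is shorter or copied less far, so each comparison that uses this array carries that difference; its part in the results was not tested. The poly-A controls, RNAs added before amplification (12 probe sets), differed by medians of -0.03 in LSK and -0.63 in MP on the log2 scale, Fbw7-deficient minus wild-type, and the hybridisation controls (9 probe sets) of -0.03 and -0.09. In LSK minus MP the poly-A controls were at 0.83 in Fbw7-deficient and 0.10 in wild-type cells, and the hybridisation controls at 0.24 and 0.19. Several of these are larger than the medians of the mitosis genes reported here, and their part in them was not tested. Fbxw7 itself had log2 differences between Fbw7-deficient and wild-type of -0.30 in LSK and 0.47 in MP, and since the sources used here do not say which exons were deleted, its probe set checks no label. Markers that passed the level filter were compared between wild-type LSK and wild-type MP. In LSK, 12 of 12 such stem cell markers were higher (median log2 difference 1.48). All 8 such granulocyte-monocyte progenitor markers and all 11 such erythroid markers were lower (medians -1.32 and -1.60). The wild-type populations thus carry the markers of their labels. In Fbw7-deficient LSK against MP, 11 of 12 stem cell markers were higher (median 1.06). There 7 of 8 granulocyte-monocyte progenitor markers and 9 of 11 erythroid markers were lower (medians -0.39 and -1.52). However, 9 of 11 mature neutrophil and macrophage markers (median 0.66) and 6 of 7 B cell markers were higher there. In the wild type 11 of 11 and 6 of 7 of these were lower in LSK. The labels of the Fbw7-deficient arrays are thus borne out in part only. Kit, on which both gates rest, read 5313 in Fbw7-deficient LSK against 6723 in wild-type LSK, and 4190.0 in Fbw7-deficient MP against 6509.9 in wild-type MP. Ly6a, the gene of Sca1, was not analysed here.

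The set as a whole was read at similar levels on all 4 arrays. The highest and the lowest array of a gene differed by a median of 0.40 on the log2 scale, against 0.43 over all genes. In 1 of the 41 genes (2.44%) they differed by 2-fold or more, against 14.9% of all genes. Mad2l1, a spindle checkpoint protein gene, varied least, with 7419 in Fbw7-deficient LSK and 7324 in wild-type LSK, and 7153 in Fbw7-deficient MP and 7411 in wild-type MP. Ncapg, which encodes a condensin subunit, varied most. The Fbw7-deficient LSK array was the highest of the 4 for 22 genes and the Fbw7-deficient MP array for 12, against 4 for wild-type LSK and 3 for wild-type MP. The wild-type MP array was the lowest for 23 genes. The same counts were not made over all genes, so these only describe the 41.

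**Figure D2:**
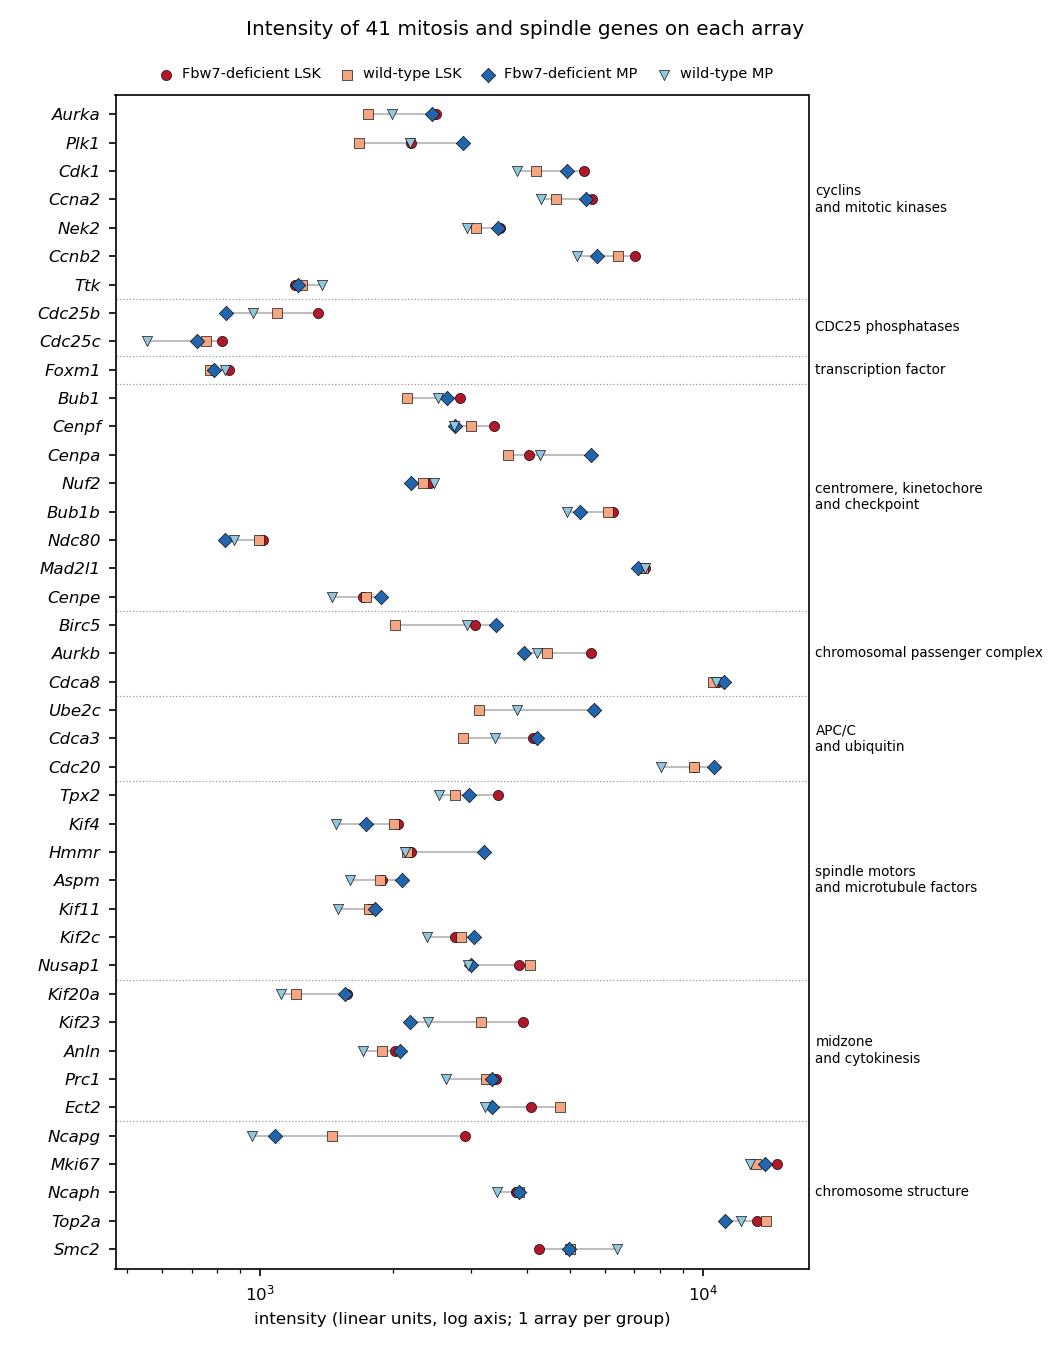
Intensity of each of the 41 genes on the 4 arrays (log axis, linear units, 1 point per array, grey line from lowest to highest), grouped by role and ordered within a role by the LSK genotype difference. The 4 points of a gene lie close together, and most of the exceptions, such as Ncapg, Ube2c, Birc5 and Plk1, have a Fbw7-deficient array at the right end.

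In LSK cells, most mitosis genes read slightly higher in the Fbw7-deficient than in the wild-type array, and none reached 2-fold. The median log2 difference was 0.12, with the middle of the genes between 0.01 and 0.32 (quartiles), against 0.00 and -0.21 to 0.18 over all genes. Of the 41, 33 lay above 0, where 50.7% of all genes did. At least 2-fold higher were 0 of 41, where 1.79% of all genes were, and 0 were at least 2-fold lower, where 1.95% of all genes were. At 1.5-fold the count was 3 higher (Ncapg, Ube2c and Birc5; 4.5% of all genes) and 0 lower (7.08% of all genes). Many differences were near 0, so the count above 0 moved with small shifts of scale: it was 28 of 41 (46.6% of all genes) when each array was centred on its median and 37 of 41 (52.9% of all genes) with the mean of all probe sets of a gene.

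In MP cells, most mitosis genes likewise read higher in the Fbw7-deficient array, with a median log2 difference of 0.22 (quartiles 0.00 and 0.35), against -0.00 over all genes (quartiles -0.18 and 0.16). Above 0 were 31 of 41, where 49.6% of all genes were. At least 2-fold higher were 0 of 41 (0.825% of all genes), and 0 were 2-fold lower (1.49% of all genes). Hmmr alone passed 1.5-fold (1 of 41, against 2.97% of all genes), and 0 were lower by that much (5.26% of all genes). With the mean of all probe sets the median was 0.12, against 0.14 in LSK.

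**Figure D3:**
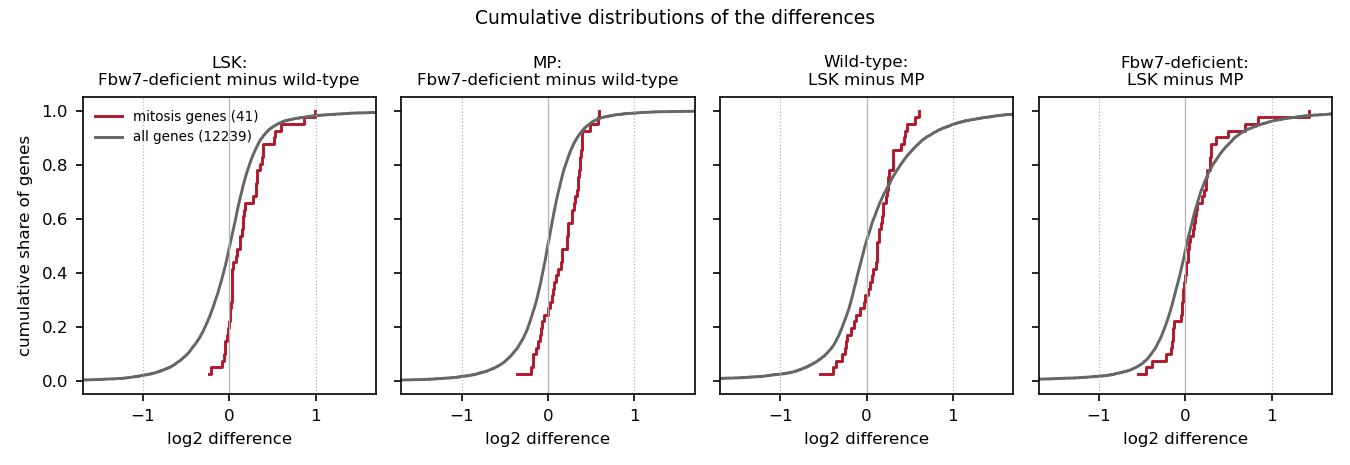
Cumulative share of genes against the log2 difference in 4 comparisons, for the 41 mitosis genes (red) and all 12239 genes (grey), with dotted lines at 2-fold. In both genotype comparisons the red line lies to the right of the grey one around 0 (medians 0.12 and 0.22). No red gene lies past 2-fold in them. Few of all genes do (1.79% higher and 1.95% lower in LSK, 0.825% and 1.49% in MP), so 41 genes are too few to compare the tails.

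The LSK and MP genotype comparisons use no array in common, although both use the same pools of mice. Above 0 in both were 26 of the 41 genes (63.4%), where 31.4% of all genes were, and below 0 in both were 3 (7.32%), where 31.1% of all genes were. Both Fbw7-deficient arrays read above both wild-type arrays for 19 genes (46.3%), where 16.2% of all genes did so. Both Fbw7-deficient arrays read below both wild-type arrays for 2 genes, Ttk and Smc2, where 12.4% of all genes did so. For the other 20 genes the arrays of the genotypes overlapped. With arrays centred on the median the 19 became 14, against 15.5% of all genes. At least 0.3 higher on the log2 scale in both populations were 6 genes (14.6%), namely Ube2c, Cdk1, Plk1, Aurka, Kif20a and Cdca3, where 4.94% of all genes were. Across the 41 genes the differences in LSK and MP had a Pearson correlation of 0.31 and a Spearman correlation of 0.25, and across all genes 0.44 and 0.39. Genes are not independent replicates, and these correlations describe 4 arrays.

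**Figure D4:**
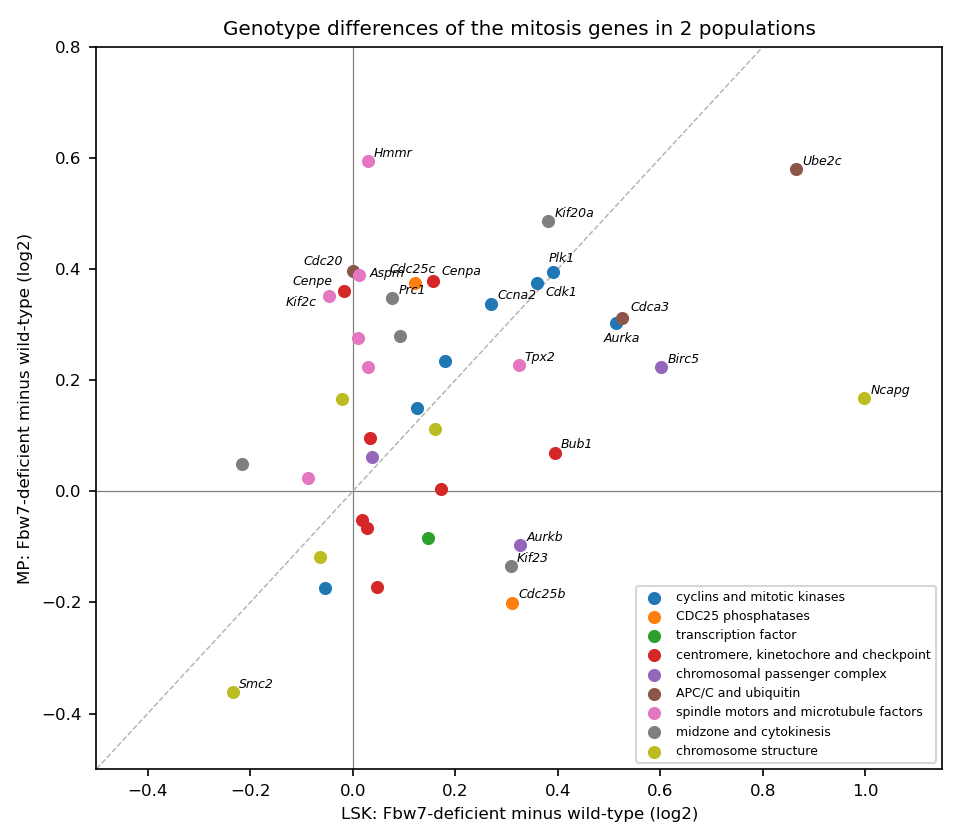
Log2 difference, Fbw7-deficient minus wild-type, in LSK (horizontal) and MP (vertical) for the 41 genes, coloured by role; the dashed line marks equal differences. Of the 41 points 26 lie in the upper right, Ube2c lies far out along both axes, Ncapg lies far along the LSK axis and Hmmr along the MP axis.

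Among the cyclins and mitotic kinases (7 genes), 6 lay above 0 in LSK and 6 in MP, with medians of 0.27 and 0.30, and none passed 2-fold. Cdk1, the kinase that triggers mitosis, read 5393 in Fbw7-deficient LSK against 4202 in wild-type LSK, and 4946 in Fbw7-deficient MP against 3814 in wild-type MP. Both Fbw7-deficient arrays were above both wild-type arrays, with log2 differences of 0.36 in LSK and 0.37 in MP. Plk1, the Polo kinase of spindle poles and kinetochores, read 2194 in Fbw7-deficient LSK against 1673 in wild-type LSK, and 2869 in Fbw7-deficient MP against 2183 in wild-type MP. Its difference was 0.39 in each population, and it was lower in LSK than in MP in both genotypes. Aurka, the Aurora kinase of spindle poles, read 2498 in Fbw7-deficient LSK against 1749.5 in wild-type LSK, and 2446 in Fbw7-deficient MP against 1983 in wild-type MP. The wild-type LSK array was the low one, and the differences were 0.51 and 0.30.

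Ccna2, encoding cyclin A2, read 5608 in Fbw7-deficient LSK against 4652 in wild-type LSK, and 5435 in Fbw7-deficient MP against 4299.8 in wild-type MP, which are log2 differences of 0.27 and 0.34. A further probe set of Ccna2 gave 0.66 and 0.35, so the LSK value depends on the probe set and the MP value does not. Ccnb2, encoding cyclin B2, read 7035 in Fbw7-deficient LSK against 6446 in wild-type LSK, and 5773 in Fbw7-deficient MP against 5200.1 in wild-type MP. Its differences of 0.13 and 0.15 were among the smaller ones. Nek2, a kinase of centrosome separation, was at 0.18 and 0.23. A further probe set of Nek2 gave 0.02 and 0.14, and a far dimmer one 0.31 and -0.67, so its direction in MP is not settled. Ttk, the kinase that starts the spindle checkpoint, was the exception of the group on the main probe sets, at -0.05 and -0.17. Its Fbw7-deficient arrays (1199 in LSK and 1219.8 in MP) both read below both wild-type arrays (1245 in LSK and 1377 in MP).

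The regulators of mitotic entry were 3 genes. Cdc25b, encoding a phosphatase that activates CDK1, read 1353 in Fbw7-deficient LSK against 1090.0 in wild-type LSK, and 839 in Fbw7-deficient MP against 964 in wild-type MP. It was thus higher in LSK (0.31) and lower in MP (-0.20). Cdc25c, its relative, read 821 in Fbw7-deficient LSK against 755 in wild-type LSK, and 719.7 in Fbw7-deficient MP against 555 in wild-type MP, with differences of 0.12 and 0.37, and 0.20 and 0.13 on its other probe set. Foxm1, the transcription factor of G2 and M phase genes, read 851 in Fbw7-deficient LSK against 769 in wild-type LSK, and 788 in Fbw7-deficient MP against 835 in wild-type MP. The 4 readings overlap between genotypes, with differences of 0.15 and -0.08, and the further probe sets of Foxm1 gave 0.10 to 0.17 in LSK and -0.04 to -0.03 in MP.

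On their main probe sets, the centromere, kinetochore and checkpoint genes (8 genes) had small differences (medians 0.04 in LSK and 0.04 in MP). Of these genes, 7 lay above 0 in LSK and 5 in MP. The 5 further probe sets of 5 of these genes gave larger medians, 0.17 in LSK (5 above 0) and 0.13 in MP (4 above 0). Bub1, a checkpoint kinase, read 2827 in Fbw7-deficient LSK against 2150.4 in wild-type LSK, and 2644 in Fbw7-deficient MP against 2519 in wild-type MP. The wild-type LSK array stood low, giving 0.39 in LSK and 0.07 in MP. Its partner in the checkpoint, Bub1b, was at 0.03 and 0.10, and Mad2l1 at 0.02 and -0.05. Ndc80 and Nuf2, subunits of the complex that grips microtubules, were at 0.03 and 0.05 in LSK and at -0.07 and -0.17 in MP. Cenpa, the histone variant of centromeres, was at 0.16 and 0.38, and Cenpe, a kinetochore motor, at -0.02 and 0.36. Cenpf, a large kinetochore protein, was at 0.17 in LSK and 0.00 in MP.

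The chromosomal passenger complex (3 genes here) corrects faulty attachments and guides cytokinesis, with Aurkb as its kinase and Birc5 (survivin) and Cdca8 (borealin) as targeting subunits. Birc5 read 3059 in Fbw7-deficient LSK against 2016 in wild-type LSK, and 3419.7 in Fbw7-deficient MP against 2928 in wild-type MP. It was 1.52-fold higher in LSK (log2 0.60) and 0.22 higher on the log2 scale in MP. The wild-type LSK array was again the low one of the 4. Aurkb read 5580.3 in Fbw7-deficient LSK against 4450.4 in wild-type LSK, and 3955 in Fbw7-deficient MP against 4229 in wild-type MP, with differences of 0.33 and -0.10. Its further probe set gave 0.39 and 0.19, so its direction in MP is not settled. Cdca8 hardly differed, at 0.04 and 0.06.

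The genes of the APC/C and its ubiquitin system (3 genes) had, on the main probe sets, higher medians than any other role in both populations, at 0.53 in LSK and 0.40 in MP. Ube2c, the ubiquitin-conjugating enzyme that works with the APC/C, read 5693 in Fbw7-deficient LSK against 3125 in wild-type LSK, and 5686 in Fbw7-deficient MP against 3802 in wild-type MP. The Fbw7-deficient arrays were nearly equal, both far above the wild-type ones, at 1.82-fold in LSK (log2 0.87) and log2 0.58 in MP. Cdca3, reported to promote mitotic entry through ubiquitin ligases, read 4124 in Fbw7-deficient LSK against 2866 in wild-type LSK, and 4217 in Fbw7-deficient MP against 3396 in wild-type MP. Its differences were 0.53 and 0.31 on this probe set and -0.06 and 0.00 on a far dimmer one (257 in wild-type LSK). Cdc20, the APC/C activator, read 9575 in Fbw7-deficient LSK against 9566 in wild-type LSK, and 10612 in Fbw7-deficient MP against 8065 in wild-type MP. It was thus level in LSK (0.00) and higher in MP (0.40), while its further probe sets gave 0.19 and 0.16 in LSK and 0.15 and 0.20 in MP.

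The spindle motors and microtubule factors (7 genes) had, on their main probe sets, a median of 0.01 in LSK (5 of 7 above 0) and of 0.28 in MP (7 of 7 above 0). The 14 further probe sets of 5 of these genes gave medians of 0.23 in LSK (11 above 0) and 0.23 in MP (9 above 0), so the contrast between the populations rests on the main probe sets. Hmmr, a spindle assembly factor, read 2195 in Fbw7-deficient LSK against 2150.4 in wild-type LSK, and 3209 in Fbw7-deficient MP against 2125 in wild-type MP. The Fbw7-deficient MP array alone stood high, at 1.51-fold (log2 0.59), against 0.03 in LSK. The 4 further probe sets of Hmmr gave 0.67 to 0.79 in MP and 0.22 to 0.66 in LSK, so the MP difference was seen on all 5 and the near-zero LSK value on 1. Aspm, which focuses spindle poles, read 1882 in Fbw7-deficient LSK against 1865 in wild-type LSK, and 2089.7 in Fbw7-deficient MP against 1596 in wild-type MP (0.01 and 0.39). Kif4, a chromosome-bound kinesin, read 2046 in Fbw7-deficient LSK against 2005 in wild-type LSK, and 1734 in Fbw7-deficient MP against 1485 in wild-type MP (0.03 and 0.22). In both genes the wild-type MP array was the lowest, and further probe sets of Aspm gave -0.05 to 0.56 in LSK and -0.02 to 0.50 in MP. Nusap1, which bundles spindle microtubules, read 3837 in Fbw7-deficient LSK against 4074 in wild-type LSK, and 2995 in Fbw7-deficient MP against 2945 in wild-type MP, and set the populations apart more than the genotypes (-0.09 and 0.02). Kif11, the kinesin that pushes the poles apart, was at 0.01 and 0.28, but a dimmer probe set gave 0.69 in LSK and -0.26 in MP. Kif2c, which takes microtubules down at kinetochores, was at -0.05 and 0.35, with 0.35 and 0.27 in LSK and 0.02 and -0.06 in MP on further ones. Tpx2, the activator of Aurora A on the spindle, was at 0.32 and 0.23, with -0.06 to 0.03 in LSK and -0.47 to 0.24 in MP on further ones. The directions of these 3 genes in MP thus depend on the probe set.

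Of the midzone and cytokinesis genes (5 genes), 4 lay above 0 in LSK and 4 in MP (medians 0.09 and 0.28). Kif20a, a midzone kinesin, read 1570.3 in Fbw7-deficient LSK against 1205 in wild-type LSK, and 1558 in Fbw7-deficient MP against 1112 in wild-type MP. Both Fbw7-deficient arrays were above both wild-type arrays, with differences of 0.38 and 0.49. Kif23, the kinesin of the centralspindlin complex, read 3915 in Fbw7-deficient LSK against 3162 in wild-type LSK, and 2184 in Fbw7-deficient MP against 2397 in wild-type MP. Its differences were 0.31 in LSK and -0.13 in MP on the main probe set, and 0.99 and 0.05 on a further one that passed the filter. Ect2, the exchange factor that activates RhoA at the division site, read 4102 in Fbw7-deficient LSK against 4764 in wild-type LSK, and 3335 in Fbw7-deficient MP against 3223 in wild-type MP. It was the only gene of the group that was lower in Fbw7-deficient LSK (-0.22), against 0.05 in MP. Prc1, which crosslinks midzone microtubules, was at 0.08 and 0.35, and Anln, a scaffold of the contractile ring, at 0.09 and 0.28.

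The genes of chromosome structure (5 genes) were mixed on their main probe sets, with 2 above 0 in LSK and 3 in MP. The 6 further probe sets of 4 of these genes were less mixed. Of them 6 lay above 0 in LSK (median 0.29) and 5 in MP (median 0.23). Ncapg, of the condensin I complex that compacts mitotic chromosomes, read 2909 in Fbw7-deficient LSK against 1457 in wild-type LSK, and 1079 in Fbw7-deficient MP against 959.8 in wild-type MP. The Fbw7-deficient LSK array stood far above the other 3, with a difference of 0.998 in LSK, just under the 2-fold line, and 0.17 in MP. Its other probe set read 1488 in Fbw7-deficient LSK against 1165 in wild-type LSK, and 1537 in Fbw7-deficient MP against 1349.9 in wild-type MP, which gave 0.35 and 0.19. The size of the Ncapg difference in LSK thus rests on 1 of its 2 probe sets, while the direction is that of both. Ncaph, another subunit of the same complex, was at -0.02 and 0.17, and at 0.05 and 0.12 on its other probe set.

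Top2a, the topoisomerase that untangles sister chromatids, read 13278 in Fbw7-deficient LSK against 13886 in wild-type LSK, and 11241 in Fbw7-deficient MP against 12194 in wild-type MP, with differences of -0.06 and -0.12. Mki67, encoding the proliferation antigen Ki-67, read 14714 in Fbw7-deficient LSK against 13163 in wild-type LSK, and 13858 in Fbw7-deficient MP against 12818 in wild-type MP, with differences of 0.16 and 0.11. A further, dimmer probe set of Top2a gave 0.24 and 0.27, so the direction of Top2a is not settled. Smc2, the core ATPase of both condensins, read 4265 in Fbw7-deficient LSK against 5015 in wild-type LSK, and 4987 in Fbw7-deficient MP against 6409 in wild-type MP. It was the lowest of the 41 in both genotype comparisons (-0.23 and -0.36), but 3 further probe sets above the filter gave 0.19, 0.38 and 0.61 in LSK and -0.52, 0.46 and 0.50 in MP, so its direction is not settled.

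The difference of the genotype differences, LSK minus MP, had a median of -0.01 over the 41 genes, with 19 above 0 (50% of all genes), and 0 of 41 passed 2-fold in either direction (2.2% of all genes higher and 1.32% lower). At 1.5-fold, 1 was higher (5.68% of all genes) and 0 were lower (5.47%). The extremes were Ncapg at 0.83, Cdc25b at 0.51 and Kif23 at 0.44 on the side of LSK and Hmmr at -0.56 on the side of MP. By role, the spindle motors and microtubule factors (median -0.26, 1 of 7 above 0) and the midzone genes (median -0.19, 1 of 5 above 0) lay on the side of MP, and the chromosomal passenger genes (median 0.38, 2 of 3 above 0) on the side of LSK. For the spindle motors and microtubule factors this side is not that of the 14 further probe sets, of which 7 lay above 0 (median 0.00), and Kif11 gave 0.95 on one of them. Of the 2 further probe sets of midzone genes above the filter, that of Kif23 gave 0.93 and that of Prc1 -0.40. The side of the midzone genes is thus not settled either. For the chromosomal passenger genes, the 3 further probe sets, of Aurkb and Cdca8, gave a smaller median of 0.12 (2 above 0). Birc5 has only 1 probe set. None of these differences between populations was tested.

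Further probe sets of a gene give a measure of technical spread within these arrays. Of the 41 genes, 28 have more than 1 probe set, and 39 further probe sets of 24 genes passed the filter. In LSK 27 of the 39 had the sign of their gene's main probe set and 35 lay above 0, with a median of 0.20. In MP 27 of 39 had the same sign and 29 lay above 0, with a median of 0.14. A further probe set differed from the main one by a median of 0.19 in LSK and 0.16 in MP, which is of the order of the median differences between genotypes. Single differences below about that size are therefore not resolved by these probe sets, and probe sets of 1 gene on 1 pair of arrays are not replicates.

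**Figure D5:**
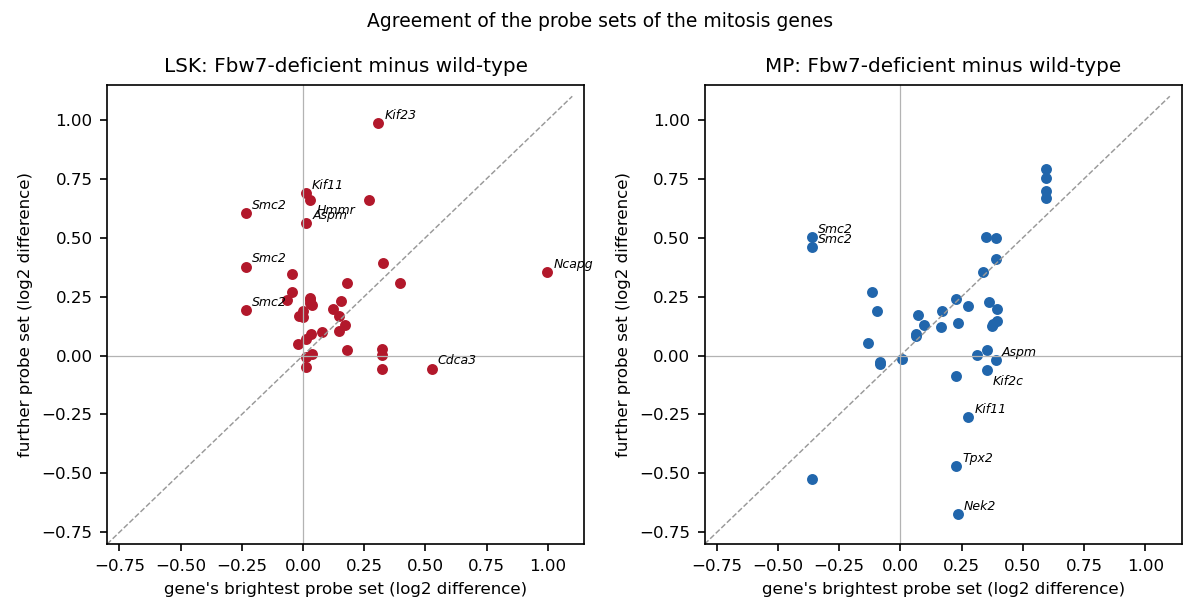
Log2 difference, Fbw7-deficient minus wild-type, of the 39 further probe sets (vertical) against that of the same gene's brightest probe set (horizontal) in LSK (left) and MP (right); the dashed line marks equality. Most points in LSK lie above 0 (35 of 39), and Ncapg, Kif23, Kif11 and Smc2 lie far from the line.

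Between the populations, mitosis genes read only slightly higher in LSK than in MP of the wild type, at a median log2 difference of 0.13 with 28 of 41 above 0 (48% of all genes) and 0 of 41 past 2-fold (5.05% of all genes higher and 2.4% lower). At 1.5-fold, 1 was higher (Ncapg; 12.7% of all genes) and 0 were lower (6.91%). On the main probe sets, 7 of 7 spindle motors and microtubule factors and 5 of 5 midzone genes were on the LSK side (medians 0.23 and 0.30). The further probe sets do not share this. Of all 39 only 18 had the sign of the main one, 20 lay above 0 and the median was 0.01. Of the 14 of spindle motors and microtubule factors 5 lay above 0 (median -0.07), and of the 2 of midzone genes 1 did (median -0.03). A higher level of mitosis genes in wild-type LSK than in MP is thus not settled by these arrays. The largest differences were those of Ncapg (0.60), Ect2 (0.56), Nusap1 (0.47), Cdc25c (0.44) and Kif4 (0.43), and on the other side Birc5 (-0.54). The other probe set of Ncapg gave -0.21, the opposite direction, and that of Cdc25c 0.09. In Fbw7-deficient cells the median was 0.05, with 26 of 41 above 0 (51.8% of all genes), a count that became 21 with arrays centred on the median (46.3% of all genes) and 20 with quantile normalization (43.9% of all genes). Ncapg alone was past 2-fold there, at 1.43 (1 of 41, against 3.86% of all genes), and its other probe set gave -0.05; 0 were 2-fold lower (1.63% of all genes). At 1.5-fold, 3 were higher (Ncapg, Kif23 and Cdc25b; 9.62% of all genes) and 0 were lower (4.74%). Birc5 was at -0.16, Hmmr at -0.55 and Kif23 at 0.84 in that comparison.

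Other genes of mitosis, from 5 lists of 137 genes, gave values of the same order. Of the 133 that passed the filter, 89 lay above 0 in LSK and 84 in MP (medians 0.09 and 0.09), with 0 past 2-fold in either direction in either comparison (of all genes 1.79% were higher and 1.95% lower in LSK, and 0.825% higher and 1.49% lower in MP). Kinetochore and checkpoint genes had medians of 0.14 in LSK and 0.10 in MP (31 and 28 of 39 above 0), with Cenph, a centromere protein gene, highest in LSK (0.64) and Oip5, which helps to load CENP-A, highest in MP (0.67). Of the regulators of mitotic entry (15 genes, medians 0.10 and 0.17), Mybl2, the MuvB partner B-MYB, read 902 in Fbw7-deficient LSK against 515 in wild-type LSK, and 1167 in Fbw7-deficient MP against 898 in wild-type MP. At 0.81 it was the highest of all 133 in LSK, and it was at 0.38 in MP. Ccnf, encoding cyclin F, was at 0.37 and 0.40.

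The remaining spindle genes (45 genes) had medians of 0.05 and 0.01, with Kpna2, an importin, at 0.51 in LSK and Numa1, of spindle poles, at -0.55, and with Ckap5, a microtubule polymerase, lowest in MP at -0.66. Genes of the APC/C, of chromatid separation and of cohesion (29 genes) had medians of 0.05 and 0.04. There Ube2s, which extends the ubiquitin chains that Ube2c starts, was at 0.51 in LSK but -0.16 in MP, and Nipbl, the cohesin loader, at -0.15 and -0.69. The 5 other condensin genes had medians of 0.03 and 0.08. The replication and S phase genes (39 genes), the part of the cycle before mitosis, had medians of 0.08 in LSK and 0.02 in MP, with 27 and 21 above 0 and 0 past 2-fold. Rrm2, of the enzyme that makes deoxynucleotides, was at 0.58 and 0.46, and Orc1, of the origin recognition complex, at 0.73 and 0.60. Slbp, which binds the stem-loop of histone mRNAs, was at 0.30 in LSK and -0.56 in MP. The lists were set beside the 41 genes as values only.

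Several lists of cell type markers differed far more than the mitosis genes between the LSK arrays. Summed intensities are over all markers of a list on the array, whereas counts and medians are over those that passed the level filter. In Fbw7-deficient against wild-type LSK, 12 of 12 stem cell markers were lower (median -1.11), with a summed intensity of 18767 against 36642. All 8 granulocyte-monocyte progenitor markers were higher (median 1.04, sums 125000 and 71307), as were all 11 erythroid markers (1.19, sums 46107 and 23115) and all 11 markers of mature neutrophils and macrophages (1.41, sums 96927 and 44749). Of the megakaryocyte markers 6 of 7 were lower (median -0.75), and of the B cell markers 5 of 7 were higher (median 0.51). In Fbw7-deficient against wild-type MP, erythroid markers were higher (11 of 11, median 0.78, sums 96299 and 64427), and B cell markers lower (6 of 7, median -0.77, sums 1579.5 and 2782). Stem cell markers were also lower there (10 of 12, median -0.29, sums 6943 and 10139). The medians of granulocyte-monocyte progenitor markers (0.03), mature neutrophil and macrophage markers (0.01) and megakaryocyte markers (-0.11) were there smaller in size than that of the mitosis genes. All 7 megakaryocyte markers were lower there, however (sums 5820 and 8817), with Ppbp lowest at -2.16. The part of these shifts in the small differences of the mitosis genes was not tested. In wild-type cells the mitosis genes differed by a median of 0.13 between LSK and MP, where the lists of stem cell, megakaryocyte, B cell, mature myeloid, granulocyte-monocyte progenitor and erythroid markers had medians of 1.48, 0.36, -0.24, -0.83, -1.32 and -1.60.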

How the data were processed

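Total RNA (20 ng) of each sorted population was amplified in a 2-cycle protocol and labelled with biotin, per the labels' protocols. The authors deposited 1 linear intensity per probe set and array. The submitters' processing notes name RMA, with version and settings not given in the sources used here. This method makes the arrays' distributions nearly alike and shrinks the differences of dim genes, so a shift common to most genes would be largely hidden. The deposited distributions were not fully equal, with 75th percentiles from 579 to 638. The range of the values shows that they are linear.

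Of 45101 probe sets, GEO's platform annotation gives 34945 a single gene, 932 several genes (not used) and 9224 none. Symbols were updated by gene ID through a RefSeq table (GRCm38.p6) for 34741. Values were taken to log2 with Python 3.11.15 and numpy 2.4.6, and differences were computed over all genes past the filter, with no test, standard error or p-value, since each group has 1 array. A further comparison subtracts the MP genotype difference from the LSK one. The procedure was tested on simulated data whose differences were larger than 2-fold. That test does not show how well smaller differences, such as those of the mitosis genes, are recovered.

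The 41 genes and all lists were chosen with earlier results of these data known. Values on all 4 arrays are given for the 6 genes with the largest difference in LSK, in MP and between the wild-type populations, the 4 with the largest difference between the genotype differences and 12 set names, and up to 3 genes are named per other list, by the size of the genotype differences. Mad2l1, Ttk and the second probe set of Ncapg were added after their values were seen, as were the count of genes whose genotypes do not overlap, the promoter letters searched and the promoters printed. Of the 137 genes of other mitosis lists 134 are named on the array.

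The alternatives were the mean of all probe sets, no level filter, a filter at the 75th percentile, median centring, quantile normalization, leaving out probe sets of shared kinds, and 1.5-fold.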

Additional observations from a re-analysis of the deposited data

Results flagged for a closer look

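For 12 of the 41 mitosis genes the Fbw7-deficient array read above the wild-type array in one population and below it in the other, where 37.4% of all genes did so. The difference between the populations was not tested, since each rests on 1 array per group. Higher in LSK and lower in MP, as log2 differences of Fbw7-deficient minus wild-type, were 7 genes: Aurkb (0.33 in LSK and -0.10 in MP, a gap of 0.42), Kif23 (0.31 in LSK and -0.13 in MP, a gap of 0.44), Foxm1 (0.15 in LSK and -0.08 in MP, a gap of 0.23), Cdc25b (0.31 in LSK and -0.20 in MP, a gap of 0.51), Mad2l1 (0.02 in LSK and -0.05 in MP, a gap of 0.07), Ndc80 (0.03 in LSK and -0.07 in MP, a gap of 0.09) and Nuf2 (0.05 in LSK and -0.17 in MP, a gap of 0.22). Lower in LSK and higher in MP were 5 genes: Cenpe (-0.02 in LSK and 0.36 in MP, a gap of -0.38), Kif2c (-0.05 in LSK and 0.35 in MP, a gap of -0.40), Nusap1 (-0.09 in LSK and 0.02 in MP, a gap of -0.11), Ncaph (-0.02 in LSK and 0.17 in MP, a gap of -0.19) and Ect2 (-0.22 in LSK and 0.05 in MP, a gap of -0.27). The gap was at least 0.3 for 5 of the 12. For Kif2c, 3 other probe sets gave 0.07 to 0.35 in LSK and -0.11 to 0.02 in MP, so its gap turns the other way on them. The opposite directions were also lost on further probe sets above the level filter of Aurkb (0.39 in LSK and 0.19 in MP), Kif23 (0.99 and 0.05), Cenpe (0.17 and 0.23) and Ncaph (0.05 and 0.12), and kept on those of Foxm1.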

How the results depend on the processing

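No paired analysis was possible because each group has 1 array and the pool of mice is the same factor as the genotype, so no comparison of genotypes has pairs. LSK and MP arrays do share pools, but the 1 residual of such a fit would be the gap between the LSK and MP genotype differences, already reported as a result, and that fit was not run. Medians of the 41 genes moved by less than 0.1 on the log2 scale under every alternative run, except that in MP, Fbw7-deficient against wild-type, which was 0.12 with the mean of all probe sets. Past 2-fold higher, Fbw7-deficient against wild-type LSK had 1 gene with quantile normalization, which is Ncapg, and Fbw7-deficient LSK against MP had 0 with the mean of all probe sets and 0 without probe sets of shared kinds (31 genes left, 9 having no other probe set and Cdca3 falling below the filter). At 1.5-fold the genes higher were 3 in the LSK genotype comparison, 1 in the MP one, 1 in wild-type LSK against MP, 3 in Fbw7-deficient LSK against MP and 1 in the difference of the differences. Genes with both Fbw7-deficient arrays below both wild-type arrays were 1 with the mean of all probe sets and 0 with quantile normalization; those with both above ranged from 14 to 19. Further probe sets in the direction of the main one in MP were 85% at the stricter filter. Of 462 values of single genes under the alternatives, 399 moved by less than 0.1 and 63 by more. All of these alternatives use the same 4 arrays, so none shows how far replicate animals would differ.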
